A study of Mus musculus with 55 samples.

Results

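The heat shock proteins and their DnaJ partners were followed through 6 sorted bone marrow populations of WT and Tet2-/- mice. Members were all genes of the first count table whose symbol starts with Hsp or Dnaj followed by a family letter or number, without the pseudogenes named with -ps. This gave 75 of the 55421 genes in the table, 30 with an Hsp symbol and 45 with a Dnaj symbol. They fall into 4 DNAJA, 13 DNAJB and 28 DNAJC genes, 11 HSP70, 3 HSP110, 3 HSP90, 3 HSP60/HSP10 and 7 small heat shock protein genes, and 3 others such as HSP-binding proteins. 2 members (Dnajc5b and Hspb3) had no count in any library, and 40 had a count in every library.

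Chaperones help other proteins fold. HSP70 proteins bind unfolded stretches in a cycle driven by ATP; J-domain proteins of the DnaJ families bring clients and trigger ATP hydrolysis, and HSP110 proteins release the nucleotide again. HSP90 acts later on kinases and receptors, the HSP60/HSP10 chaperonin folds proteins in mitochondria, and the endoplasmic reticulum (ER) has its own set led by Hspa5 (BiP) and Hsp90b1 (GRP94). Blood stem cells are known to make protein slowly and to be sensitive to misfolded protein.

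C57BL/6 bone marrow was sorted into 2 stem cell pools, long term (LT-HSC) and short term (ST-HSC), and 4 progenitor pools. CMP stands for the common myeloid progenitor and CLP for the common lymphoid one. GMPs lead to granulocytes and macrophages, and MEPs to megakaryocytes and red cells. Tet2 encodes an enzyme that oxidizes methylated cytosine. Tet2-/- mice carried floxed Tet2 alleles and Mx1-Cre, a recombinase under an interferon-inducible promoter, were given poly(I:C), an RNA mimic that induces interferon, at 4 weeks of age, and were kept for 16 weeks afterwards. The labels give the controls as WT and do not say whether these mice carried floxed alleles or Mx1-Cre, or received poly(I:C). Each genotype had 4 libraries per population (labelled replicates 2 to 5), but WT LT-HSCs and WT ST-HSCs had 3 each, 46 in all. A second table held 9 further LT-HSC libraries, which entered no test: 3 from Tet2;Sting DKO mice, 3 from Sting-/- mice, which lack an adaptor of cytosolic DNA sensing, and 3 labelled as a second WT set. Per the study, DKO mice carried floxed Tet2 alleles and Mx1-Cre on a Sting-/- background and were given poly(I:C). No age at sampling is stated for these 9 libraries. The study counts its replicates as mice, while the labels do not tie a library to a mouse; p-values measure the spread between these libraries.

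Libraries summed to between 50458473 and 102148079 counts (median 70118186.5), of which the members took 0.610% to 1.42% of the counts. Levels are given as CPM, counts scaled to one common total per library after TMM normalization. Of the fixed marker lists (none for CMPs), the 5 GMP genes summed to at least 32229 CPM in GMPs, the 5 MEP genes to at least 13321 CPM in MEPs and the 5 CLP genes to at least 451 CPM in CLPs, each above all other populations, while the 8 stem cell genes summed to 356 to 1037 CPM in LT-HSCs and ST-HSCs and up to 465 CPM in CLPs. The CLP libraries stood apart: immunoglobulin genes took 26.4% to 47.0% of the counts of WT CLPs and 0.0840%, 9.36%, 29.2% and 32.6% in Tet2-/- CLP replicates 2 to 5, against at most 0.0234% in any other library. Of 6 plasma cell markers, 5 had over 3 counts in every CLP library of both genotypes. The CLP libraries also differed from each other in GMP markers, with 4.94 to 3105 CPM in WT and 2.63 to 12328 CPM in Tet2-/- libraries. Tet2 itself read 33.0 to 41.2 CPM in WT and 39.5 to 60.1 CPM in Tet2-/- GMPs; counts over the whole gene include exons that the deletion leaves, so they do not check the excision.

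Promoters are shown for 5 members because the ER stress and heat shock programs are known by the DNA letters they read. The ER stress response element was searched as CCAAT followed after 9 free bases by CCACG, and the heat shock element as GAA, TTC and GAA with 2 free bases between them, on both strands of RefSeq promoter windows of 300 bases (build GRCm38.p6), which 60 of the 75 members had. The ER element was found in 3 members, Dnajc3, Hsp90b1 and Hspa5, and in 0.137% of all 27025 genes with a window. The matching letters are in capitals in the following sequences, and Hsp90b1 holds 2 of them on opposite strands.
Dnajc3, chr14:118937797-118937875, plus strand: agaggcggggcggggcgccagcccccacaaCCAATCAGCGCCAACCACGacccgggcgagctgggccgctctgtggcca
Hspa5, chr2:34771995-34772073, plus strand: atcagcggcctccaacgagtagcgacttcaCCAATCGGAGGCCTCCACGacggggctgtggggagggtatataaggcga
Hsp90b1, chr10:86705503-86705686, minus strand: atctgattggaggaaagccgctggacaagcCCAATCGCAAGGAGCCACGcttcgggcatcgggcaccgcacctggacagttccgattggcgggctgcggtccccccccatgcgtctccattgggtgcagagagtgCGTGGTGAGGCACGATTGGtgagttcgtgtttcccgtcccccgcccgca
The heat shock element in this form was found in 4 members, Dnajb6, Hsph1 and the head-to-head pair Hspd1 and Hspe1, and in 0.662% of all genes with a window. The Hsph1 match lies after the gene start and is not printed. A shorter form, GAA and TTC with 2 free bases between, was found in 14 of the 60 members, among them Hspa1a, Hspa1b, Hspb1 and Hspb8. It was found in 9.04% of all genes with a window. In the stretch that Hspd1 and Hspe1 share, 2 matches on opposite strands overlap, and the capitals cover both.
Hspe1, chr1:55088029-55088106, plus strand: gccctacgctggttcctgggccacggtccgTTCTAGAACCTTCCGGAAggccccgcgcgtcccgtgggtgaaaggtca
Dnajb6, chr5:29735822-29735894, plus strand: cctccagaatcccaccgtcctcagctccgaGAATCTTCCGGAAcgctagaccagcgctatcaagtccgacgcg
A match is a run of letters in this window and was not tested for binding.

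The 10 highest members made up most of the members' RNA. Hsp90ab1, Hspa8 and Hsp90aa1, the HSP90 and HSP70 workhorses of the cytosol, took 17.2%, 16.2% and 15.0% of all member counts, and the 10 together took 76.5%. Per kb of exon, the mean level over the 46 libraries was 574 CPM per kb for Hsp90ab1, 381 for Hsp90aa1 and 376 for Hspa8. Hspe1 (201 CPM per kb), Hspa5 (193 CPM per kb), Hspd1 (146 CPM per kb) and Hsp90b1 (135 CPM per kb) came next. Among J-proteins, Dnajb9 (69.3 CPM per kb) led Dnaja2 and Dnajc8 (63.6 CPM per kb each) in this mean, which holds the CLP libraries with their high Dnajb9 (219 CPM per kb in WT). In WT CMPs, GMPs and MEPs Dnaja2 was higher, at 82.5, 90.0 and 86.6 CPM per kb against 69.4, 51.9 and 40.8 for Dnajb9. Some stress-induced members were near the floor. Hspa1a, the heat-inducible HSP70, was at most 2.92 CPM in all libraries outside CLPs, with 50.7 CPM in Tet2-/- CLP replicate 3 and at most 8.20 CPM in the other CLP libraries. Hspb1, a small heat shock protein induced by stress, had no count in any GMP library and reached 27.3 CPM in WT CLP replicate 2.

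Of the cytosolic HSP90 genes, Hsp90ab1 was steady outside CLPs and Hsp90aa1 was not. In WT libraries Hsp90ab1 (chr17:45567775-45573271) averaged 1624, 1688, 1732, 1902, 1866 and 1235 CPM from LT-HSC through ST-HSC, CMP, GMP and MEP to CLP, with SDs of 26.7 to 287. The libraries outside CLPs lay between 1572 and 2055 CPM; neighbouring populations overlapped from ST-HSC to MEP, LT-HSC and ST-HSC were separated by under 1 CPM, and every WT CLP library was at or under 1549.9 CPM. Hsp90aa1 (chr12:110690605-110702728), its inducible partner, averaged 1577, 1520.1, 1432, 1102, 2616 and 485 CPM in the same order. Its 4 WT MEP libraries (2639, 2325, 2260.2 and 3239 CPM) were above all other WT libraries, and its 4 WT CLP libraries (688, 462, 329.6 and 462 CPM) were below them. Hspa8 (chr9:40800984-40810087), the constitutive HSP70, ran from a mean of 1483 CPM in WT ST-HSCs to 2226 CPM in WT MEPs.

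**Figure D1:**
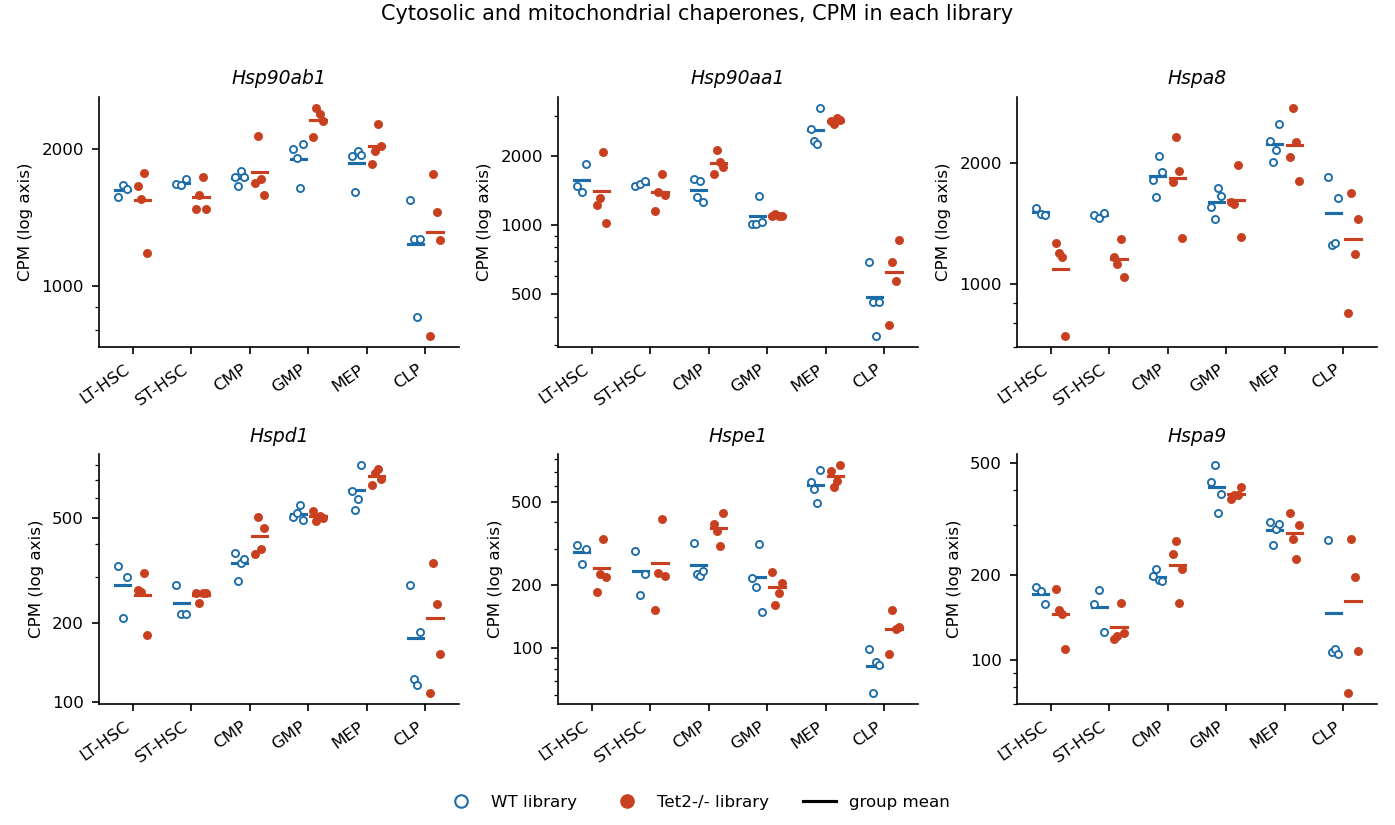
CPM (log axis) of 3 cytosolic chaperones (Hsp90ab1, Hsp90aa1, Hspa8) and 3 mitochondrial ones (Hspd1, Hspe1, Hspa9) by population. Open blue points are WT libraries, filled red points Tet2-/- libraries and bars group means. Hsp90aa1 and Hspe1 stand highest in MEPs and lowest in CLPs in WT libraries, at means of 2616 against 485 CPM and 604 against 82.5 CPM.

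Of the 68 members that passed the count filter in the WT libraries, 42 differed among the 6 WT populations at an adjusted p under 0.05 (edgeR quasi-likelihood test, Benjamini-Hochberg over 20006 genes). That is 61.8% of them, against 44.6% of all genes tested. In Tet2-/- libraries 32 of 68 differed (47.1%, against 40.2% of all genes). In bulk RNA a lower level from fewer cells of a type and from less RNA per cell cannot be told apart. Members were then compared along the usual differentiation steps, where a call also needed at least a 2-fold difference.

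The step from ST-HSC to CMP brought higher levels of 3 ER chaperones. In WT libraries 5 of 68 members were higher in CMPs and none lower, against 3.77% of genes called higher and 1.23% lower. They were Dnajc2 (log2 fold change 1.62, adjusted p = 0.00903), Dnajb11 (1.60, 0.00059), Dnajc9 (1.30, 0.0473), Dnajc3 (1.09, 0.00035) and Hspa5 (1.04, 0.0254). Dnajb11 (ERdj3) and Dnajc3 (P58IPK) are J-proteins of the ER lumen that work with Hspa5, Dnajc2 is a J-protein bound to the ribosome, and Dnajc9 is a J-protein that also binds histones. The ER members Hsp90b1, Hspa13 and Dnajb9 were not called. Their means were 49.8, 3.50 and 90.1 CPM per kb in WT ST-HSCs and 66.4, 4.13 and 69.4 in WT CMPs, so Dnajb9 was the lower in CMPs. WT CMPs had 89.4, 83.9, 77.9 and 81.3 CPM of Dnajc2 and WT ST-HSCs 39.0, 21.0 and 20.8 CPM, with no overlap. Leaving out any 1 of the 7 libraries ended the call of Dnajc9, and the call of Hspa5 was lost without ST-HSC replicate 2 or 3 or CMP replicate 4 or 5 and that of Dnajc2 without ST-HSC replicate 3 or 5, so that 2 to 4 members were called; 3 were with immunoglobulin genes left out. In Tet2-/- libraries 4 members were higher and none lower, against 2.04% and 1.29% of genes. Dnajb11 (1.56) and Dnajc9 (1.53) were also called in WT, Hspa14 (1.37) and Dnaja3 (1.14) were not. Dnaja3 lost its call in 7 of 8 fits without a library, and Dnajb11 was lost without ST-HSC replicate 3 and without CMP replicate 3, and in the latter fit 2 calls were left.

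GMPs, the precursors of granule-making cells, stood above CMPs in 4 ER chaperones, Hspa4 and Hspa9. In WT libraries 6 members were higher and 1 lower, against 1.6% of all genes higher and 1.54% lower. Hsp90b1 was at 622, 705, 907 and 719 CPM in WT GMPs against 269.9, 226, 284 and 292 CPM in WT CMPs (log2 1.48, adjusted p = 0.00812). The others were Hspa13, an ER-resident HSP70 (1.32), Dnajc3 (1.32, 3.67e-05), Hspa4, an HSP110 protein that recycles cytosolic HSP70 (1.16, 0.011), Hspa9, the mitochondrial HSP70 (1.07), and Dnajb11 (1.02). Dnajb4, a cytosolic J-protein, was lower (-1.20). Of the other ER members, Hspa5 was at 1097 to 1699.7 CPM in WT GMPs and 784 to 1043 CPM in WT CMPs without a call (0.65, adjusted p = 0.16), and Dnajb9, an ER J-protein, was at 106 to 150.4 CPM against 166 to 196 CPM (-0.40, 0.521). For each of the 6 members called higher, and for Hspa5, all 4 WT GMP libraries were above all 4 WT CMP libraries. The 6 were picked by their calls in these same libraries, and the share of all genes separating this way was not counted. Without single libraries the count was 4 to 6, lowest without GMP replicate 3, where Hspa9 lost its call. Hspa4 and Hspa13 each lost their call in 3 of the 8 fits, and Dnajb11 lost its call in 6, all but those without CMP replicate 5 or GMP replicate 2. In Tet2-/- libraries 4 members were higher (1.83% of genes) and 1 lower (1.25%): Dnajb11 (1.48), Hspa13 (1.28), Hsp90b1 (1.26) and Hspa5 (1.12) were higher and Dnajb4 lower (-1.21). Hspa4 was not among them, at 40.6 to 60.2 CPM in Tet2-/- GMPs and 58.3 to 78.0 CPM in Tet2-/- CMPs. Each of these Tet2-/- calls but that of Hsp90b1 was lost in 4 to 8 of the 8 fits without a library, and Hsp90b1 was the 1 call left without CMP replicate 2, 4 or 5 or GMP replicate 5.

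**Figure D2:**
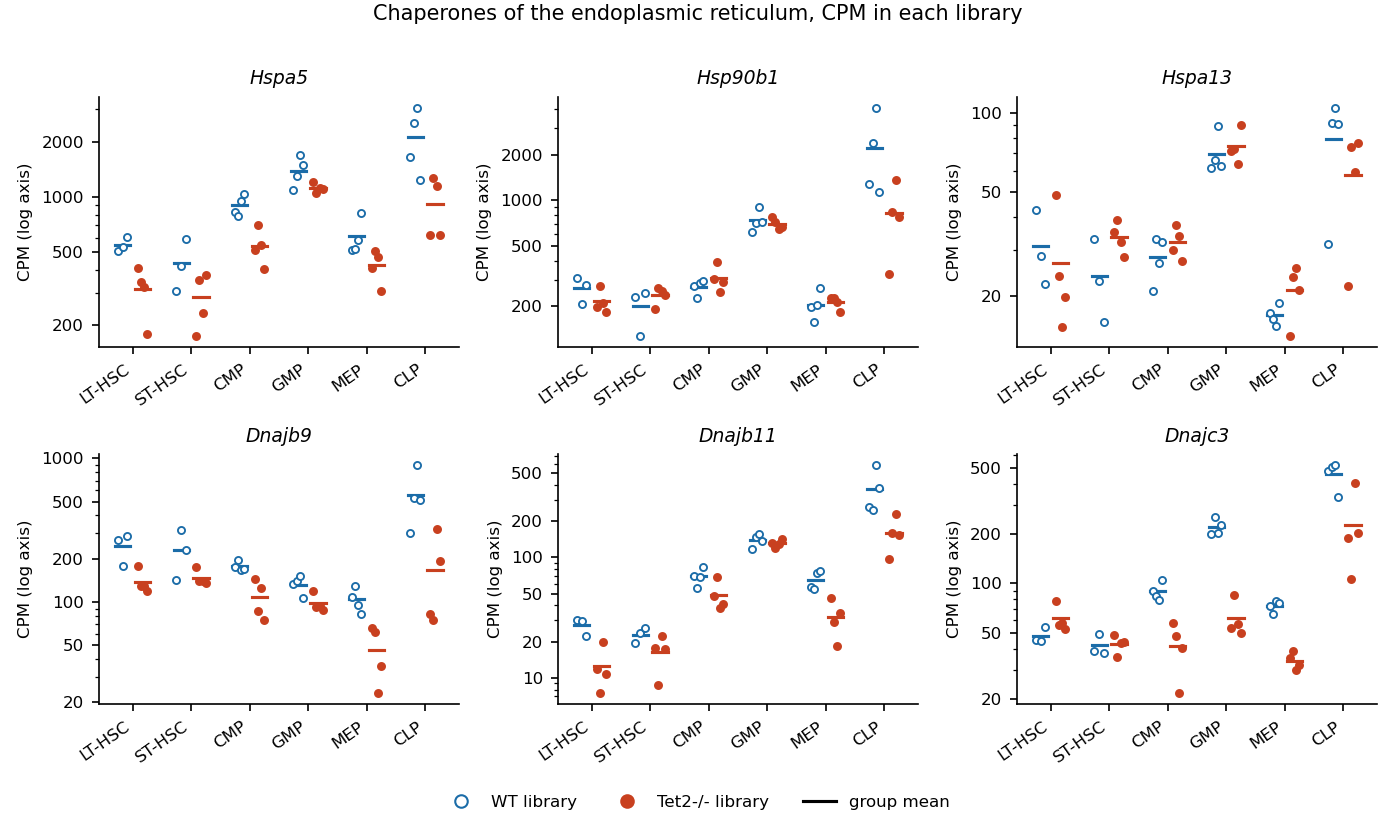
CPM (log axis) of 6 ER chaperones by population, with WT libraries as open blue points, Tet2-/- libraries as filled red points and group means as bars. Hsp90b1 rises from at most 292 CPM in WT CMPs to at least 622 CPM in WT GMPs, Dnajc3 of Tet2-/- GMPs lies below all WT GMPs, and the CLP libraries of both genotypes spread widely.

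WT MEPs, which lead to red cells and platelets, were higher than WT CMPs in Hspe1 and Dnajc19, both of mitochondria. These were 2 of 68 members, and none was lower, against 0.93% of genes higher and 5.52% lower. Hspe1 (chr1:55088132-55091307), the lid of the mitochondrial chaperonin, was at 628, 575, 497 and 715 CPM in WT MEPs and 319, 226, 223 and 234 CPM in WT CMPs (log2 1.22, adjusted p = 0.000604). Dnajc19, a J-protein of the mitochondrial import motor, was the other (1.01, 0.00957), and was under 2-fold without CMP replicate 3 or MEP replicate 4 or 5. Hspd1 (chr1:55077835-55088243), the barrel of the same chaperonin, overlaps Hspe1 on the other strand; the counting is not stated to use strand, so reads from the overlap cannot be assigned. It was at 633, 539.6, 593 and 795 CPM in WT MEPs and 289.6 to 369 CPM in WT CMPs, without overlap, and was not called at 2-fold. Other mitochondrial members, Hspa9, Dnaja3 and Dnajc15, were not called (log2 0.50, 0.69 and 0.29, adjusted p = 0.209, 0.0521 and 0.359). The share of mitochondrial counts was 6.85% to 9.18% in WT MEPs and 5.94% to 6.57% in WT CMPs, without overlap. Its part in the levels of Hspe1 and Dnajc19 was not tested. In Tet2-/- libraries 1 member was called, Dnajb5, against 3.4% of genes called lower and 0.221% higher; it had no count in Tet2-/- MEPs and at most 0.883 CPM in Tet2-/- CMPs. In that comparison same-numbered libraries deviated together, and with the replicate number as a block no member was called, nor was any in 7 of the 8 fits without a library.

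CLPs differed from ST-HSCs in the largest number of members. In WT libraries 14 members were higher and 7 lower, against 10.2% of genes higher and 14.3% lower. The ER set was the highest of these above 10 CPM: Dnajb11 (log2 3.98), Hsp90b1 (3.44), Dnajc3 (3.42) and Hspa5 (2.26), followed by Dnajb2 (2.18), a cytosolic J-protein. Hspa13, Dnajc14, Dnajc1, Dnajc4, Dnajb9, Dnajb12 and Dnajb1 were higher by 1.05 to 1.71. Dnajc3 was at 479, 506, 518 and 332 CPM in WT CLPs and 38.9, 49.5 and 38.1 CPM in WT ST-HSCs. The summed CPM of Hspa5, Hsp90b1, Dnajb9, Dnajb11 and Dnajc3 ran from 3592 to 9099 in WT CLPs and from 738 to 1125 in WT ST-HSCs. Lower members at a mean of at least 10 CPM were led by Hspb11 (-1.94), Hsp90aa1 (-1.67), Hspe1 (-1.53), Dnajb4 (-1.45) and Dnajc24 (-1.20). Hspe1 was at 99.3, 61.2, 86.0 and 83.6 CPM in WT CLPs and 294, 180.5 and 226 CPM in WT ST-HSCs. These values stand beside the immunoglobulin share of 26.4% to 47.0% and summed plasma cell markers of 159700 to 357270 CPM in WT CLPs (at most 195 CPM outside CLPs); their part in the result was not tested. Of 16 immediate early genes, which respond quickly to handling of cells, 13 were higher and 1 lower in WT CLPs (median 2.43), and their part was not tested either. With immunoglobulin genes left out of the table all 21 calls were kept. Leaving out these rows changes the scaling and keeps all other RNA of the same cells, so it does not test the part of plasma cells. Without single libraries 15 to 22 members were called, fewest without ST-HSC replicate 2. Dnajb12 and Dnajc24 each lost their call in 4 of these 7 fits, Dnajc4 and Dnajb1 in 3 each, Dnajb2 without ST-HSC replicate 5 and Dnajb9 without CLP replicate 4. Of the 21 calls, Hspa1a and Hspa1b rest on WT ST-HSC libraries with at most 2 counts, and Hspa12b had no count in any WT CLP library.

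Tet2-/- CLPs gave 9 higher and 8 lower members against Tet2-/- ST-HSCs, beside 9.36% and 10.8% of genes. Dnajb11 (3.26), Dnajc3 (2.37), Hsph1 (2.02), Hsp90b1 (1.79) and Hspa5 (1.66) were the higher members of largest change above 10 CPM, and Dnajc6 (auxilin, -2.19), Hsp90aa1 (-1.18) and Hspe1 (-1.06) the lower ones. The call of Hspe1 was lost without ST-HSC replicate 4 (log2 -0.72) or CLP replicate 2. That of Hsp90aa1 was lost without CLP replicate 2 (-0.999). Hsph1, an HSP110 protein, rested on 1 library: Tet2-/- CLP replicate 3 had 124 CPM against 9.19 to 32.2 CPM in the other 3, and without it the log2 fold change was 0.67; 4 of 8 fits without a library lost the call. That library was also the one with 50.7 CPM of Hspa1a and with summed GMP markers of 12328 CPM, against 2.63 to 4233 CPM in the other 3; their part in its Hsph1 level was not tested. In total 9 members were called in CLPs of both genotypes, 42.9% of the WT calls and 52.9% of the Tet2-/- calls. The same overlap was not counted over all genes, of which 24.5% were called in WT and 20.1% in Tet2-/- libraries. Among the 9 are Hspa1a and Hspa12b, which had few or no counts in 1 of the compared populations. Across the 46 members above 10 CPM in both fits, the log2 changes of this step had a Pearson correlation of 0.84 between WT and Tet2-/- libraries, against 0.77 for GMP over CMP and 0.58 for CMP over ST-HSC; genes are not independent replicates.

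**Figure D3:**
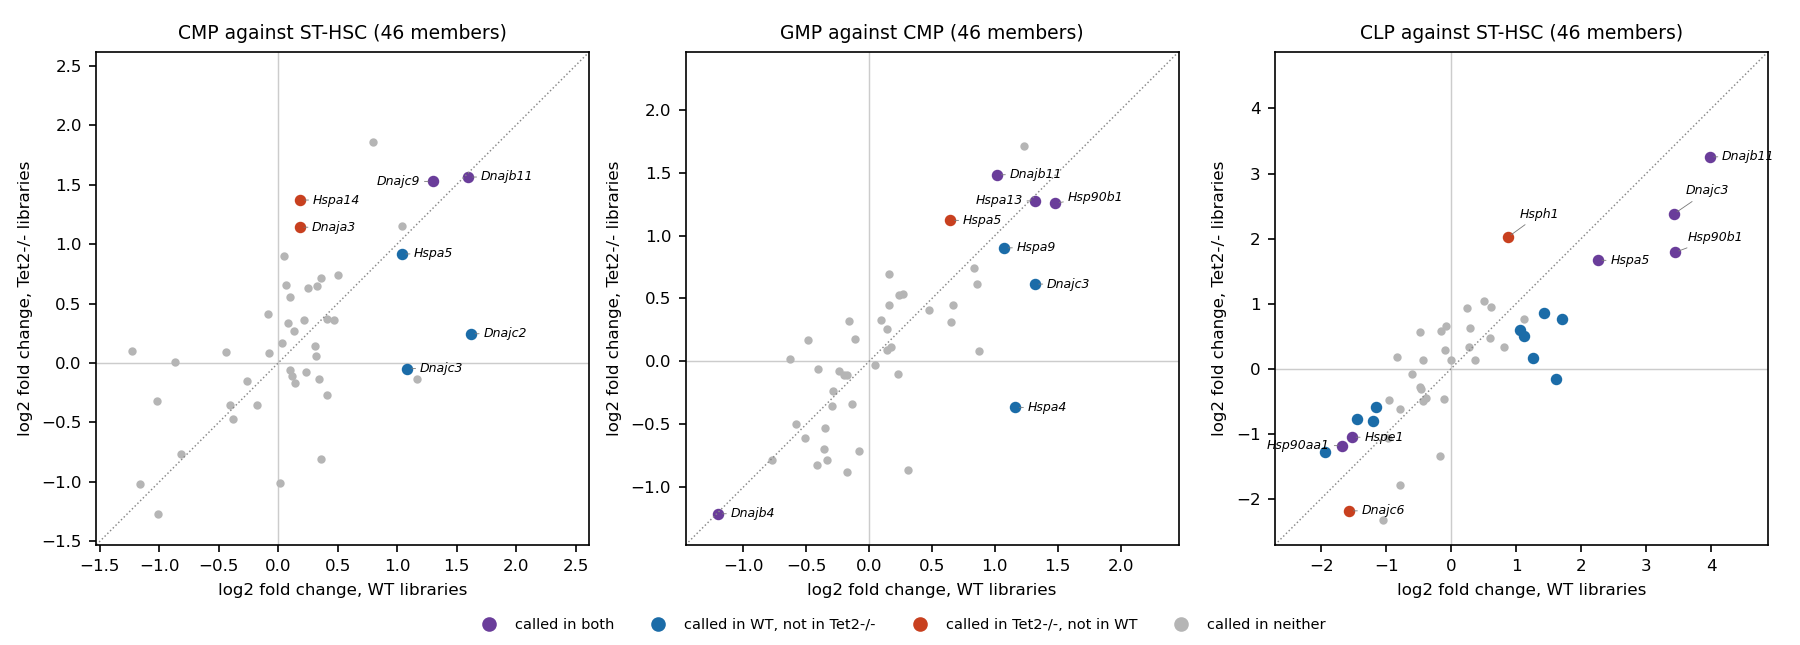
Log2 fold change of each member in WT libraries (x axis) and in Tet2-/- libraries (y axis) for 3 steps, with 46 members above 10 CPM in each panel. Purple points were called in both genotypes, blue in WT and not in Tet2-/-, red in Tet2-/- and not in WT, and grey in neither; Dnajb11, Dnajc3 and Hsp90b1 lie far to the upper right for CLP against ST-HSC. Names are given for called members, in the CLP panel for those called in Tet2-/-.

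No member was called between LT-HSCs and ST-HSCs in either genotype by edgeR, against 0.175% of genes in WT and 0.118% in Tet2-/-. At an unadjusted p under 0.05, 5 WT and 3 Tet2-/- members were past the threshold (7.35% and 4.41%, against 8.85% and 8.57% of genes), and DESeq2 called 1 in each, beside 3.73% and 3.71% of genes. With an unadjusted p and 2-fold, the steps ST-HSC over LT-HSC, CMP over ST-HSC, CLP over ST-HSC, GMP over CMP and MEP over CMP had 5, 12, 25, 12 and 6 WT members, beside 7.32%, 15%, 35.2%, 10.6% and 15.2% of genes, and 2, 9, 21, 6 and 2 Tet2-/- members, beside 7.48%, 14%, 31.9%, 11.8% and 12.8%.

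Between genotypes, a few members were lower in Tet2-/- myeloid progenitors: Dnajc2 and Dnajc3 in CMPs, these and Hspa4 in GMPs, and 5 J-proteins in MEPs. The abundant HSP90 and HSP70 genes were not called. The DNAJC genes did not move one way, with 14, 11 and 12 of 25 at a log2 value above 0 in CMP, GMP and MEP. Of 11 DNAJB genes, 2, 3 and 0 were above 0, with medians of -0.56, -0.21 and -1.04. Over all genes tested 52.0%, 52.9% and 54.2% were above 0. In LT-HSCs 1 of 11 and in ST-HSCs 2 of 10 DNAJB genes were above 0, with medians of -0.41 and -0.58. Of all genes 54.3% and 53.1% were above 0 in these pools. None of the 4 DNAJA genes was above 0 in either stem cell pool. At an adjusted p under 0.05 and 2-fold, 2 of 63 tested members were lower in Tet2-/- CMPs, 3 of 63 in GMPs and 5 of 60 in MEPs, and none was higher. These are 3.17%, 4.76% and 8.33% of members, beside 3.92%, 4.06% and 4.21% of all genes called lower and 0.654%, 0.308% and 0.147% called higher, so the CMP and GMP shares were near those of all genes. None was called in LT-HSCs, ST-HSCs or CLPs. 5 members (Dnaja2, Dnajc1, Dnajc2, Dnajc3 and Hspa4) had every Tet2-/- library below every WT library in each of these 3 populations, 8.77% of the 57 tested in all 3, against 3.84% of 13911 genes.

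Dnajc2 (chr5:21757267-21785251, minus strand), which with Hspa14 forms the ribosome-associated chaperone complex, was lower in all 3 myeloid progenitors. CMPs had 89.4, 83.9, 77.9 and 81.3 CPM in WT and 36.3, 28.4, 18.5 and 35.3 CPM in Tet2-/- libraries (log2 -1.50, SE 0.21, adjusted p = 0.00237). GMPs had 81.9, 95.0, 125 and 68.5 CPM against 34.8, 30.7, 27.2 and 29.4 CPM (-1.64, SE 0.20, 0.000299). MEPs had 116, 104, 98.4 and 127 CPM against 37.3, 27.4, 23.0 and 37.0 CPM (-1.84, SE 0.19, 0.000484). No WT library overlapped a Tet2-/- library in any of the 3, and the calls held in every fit without 1 library. The highest Tet2-/- level among these populations, 37.3 CPM, was within the WT range of ST-HSCs (20.8 to 39.0 CPM). In LT-HSCs the genotypes overlapped, at 24.7, 21.7 and 35.6 CPM in WT and 42.3, 10.97, 29.4 and 38.3 CPM in Tet2-/- libraries.

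Hspa4 (chr11:53259814-53300457, minus strand) differed most in GMPs. WT GMPs had 309, 289, 197 and 193 CPM and Tet2-/- GMPs 60.2, 51.0, 45.1 and 40.6 CPM (log2 -2.36, SE 0.19, adjusted p = 2.14e-05). The lowest WT library was more than 3 times the highest Tet2-/- library. In CMPs it was at 119.9, 114.9, 120.3 and 92.5 CPM against 58.3, 78.0, 66.7 and 62.7 CPM (-0.77, SE 0.14, adjusted p = 0.0095), and in MEPs at 139.6, 105.5, 136 and 163 CPM against 90.3, 96.2, 88.5 and 93.3 CPM (-0.57, SE 0.14, 0.0422). Both groups of libraries were separate in CMPs and MEPs, but the changes stayed under 2-fold. The related HSP110 genes Hsph1 and Hspa4l were not called in any genotype comparison.

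Dnajc3 (chr14:118937976-118981697, plus strand), the ER J-protein whose promoter is printed above, was lower in all 3 myeloid progenitors, most in GMPs. GMPs had 200.3, 252, 202 and 226 CPM in WT and 53.4, 84.9, 56.8 and 50.1 CPM in Tet2-/- libraries (log2 -1.87, SE 0.18, adjusted p = 5.6e-05). MEPs had 72.7, 65.5, 78.2 and 76.2 CPM against 35.1, 39.0, 29.9 and 32.1 CPM (-1.11, SE 0.13, 0.00088). CMPs had 90.4, 83.7, 78.9 and 105 CPM against 57.9, 47.9, 21.7 and 40.5 CPM (-1.11, SE 0.26, 0.0361). The genotypes did not overlap in these populations. The GMP and MEP calls held in every fit without 1 library, while the CMP call was kept only without Tet2-/- CMP replicate 2 and lost in the other 7 fits, with log2 values of -1.29 to -0.89 and adjusted p of 0.0193 to 0.110. In LT-HSCs the values were 45.5, 44.9 and 54.2 CPM in WT against 78.4, 56.2, 57.6 and 53.0 CPM in Tet2-/- libraries, overlapping and with the opposite sign (0.37, SE 0.23, adjusted p = 0.998). The other 2 genes with an ER stress element were not lower to the same degree in GMPs. There Hsp90b1 was at 622 to 907 CPM in WT and 644 to 779.7 CPM in Tet2-/- libraries (-0.11, SE 0.13, adjusted p = 0.752). Hspa5 was at 1097 to 1699.7 against 1054 to 1203 CPM (-0.35, SE 0.14, 0.193). In CMPs and MEPs Hspa5 was lower without overlap (log2 -0.75 and -0.54, edgeR adjusted p = 0.0265 and 0.171). Hsp90b1 was not lower there (log2 0.19 and 0.04).

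**Figure D4:**
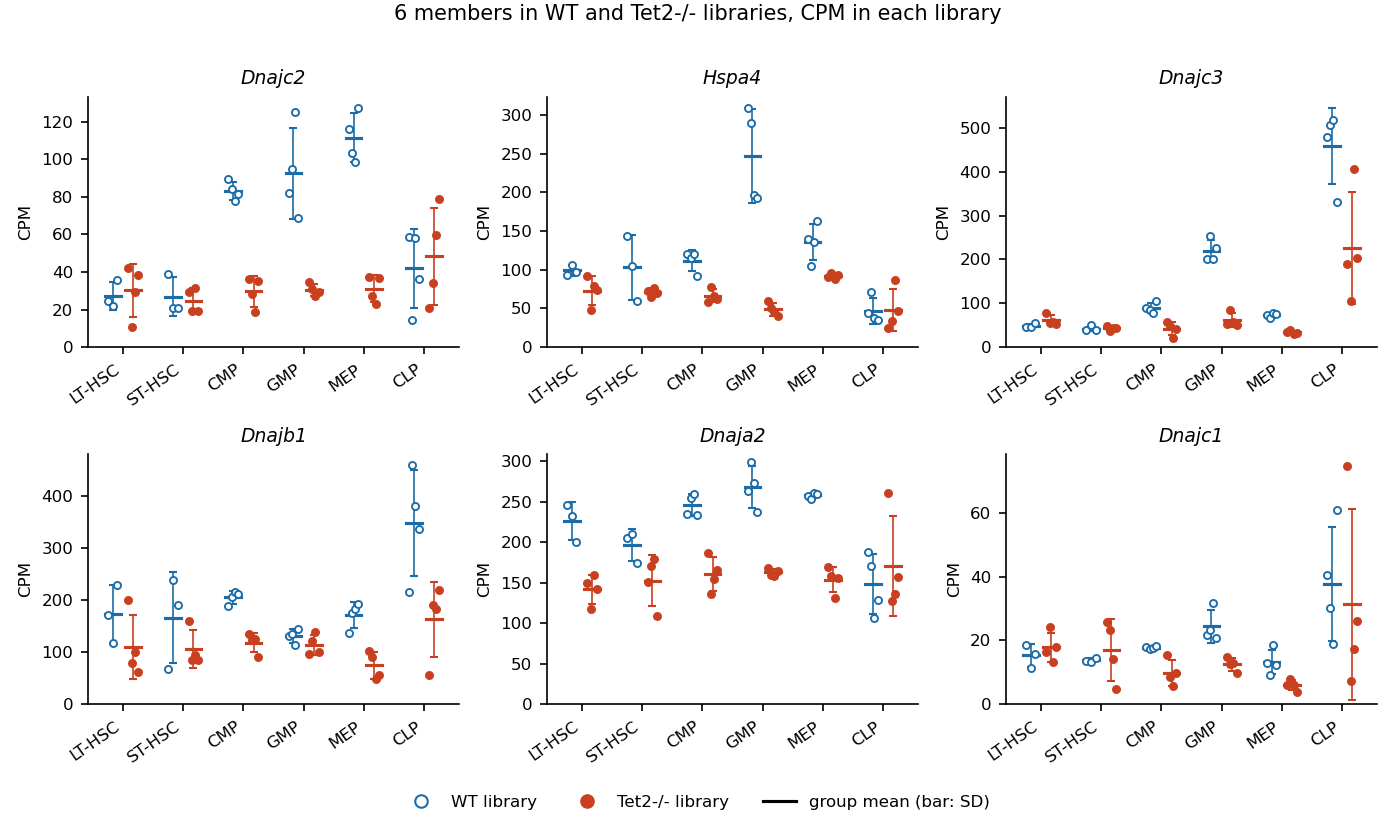
CPM (linear axis from 0) of 6 members by population, with WT libraries as open blue points, Tet2-/- libraries as filled red points, and the mean with SD bars. In CMPs, GMPs and MEPs the Tet2-/- libraries of Dnajc2, Hspa4, Dnajc3, Dnaja2 and Dnajc1 lie below all WT libraries; Dnajb1 separates in CMPs and MEPs and overlaps in GMPs.

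MEPs held 3 further calls, all J-proteins, and all 3 were lost with the 46 libraries in one fit. Dnajb1 (chr8:83608193-83612653), the main inducible J-protein of the cytosol, was at 136.6, 175, 183 and 193 CPM in WT and 103, 91.1, 48.2 and 56.5 CPM in Tet2-/- MEPs (log2 -1.21, SE 0.24, adjusted p = 0.0179). The call was lost without WT replicate 4, WT replicate 5 or Tet2-/- replicate 5 (log2 -1.43 to -1.06 and adjusted p 0.00681 to 0.0586 over the 8 fits). Dnajc1, a J-protein of the ER membrane, was at 13.0, 9.29, 18.5 and 12.3 CPM against 6.18, 7.91, 6.03 and 3.98 CPM (-1.15, SE 0.28, 0.0469) and lost its call in 7 of the 8 fits (adjusted p 0.0406 to 0.139), all but that without WT replicate 3. Dnajb3 was lowly expressed, at 4.12, 5.33, 7.19 and 7.42 CPM against 1.64, 0.183, 0.423 and 0.629 CPM (-3.01, SE 0.65, 0.0234), and lost its call in 5 of the 8 (adjusted p 0.00364 to 0.0744). Without WT replicate 4, WT replicate 5 or Tet2-/- replicate 5, 2 members were called in MEPs, without Tet2-/- replicate 4 3 were, and without Tet2-/- replicate 2 7 were, with Dnajb6, Dnajb9 and Dnajb11 added. Dnajb3 lies within the Ugt1a genes on the other strand and Dnajc1 overlaps Mllt10 on the other strand, so reads of these pairs cannot be told apart without strand. In MEPs all 11 DNAJB genes tested had a log2 value below 0, with a median of -1.04 against 0.05 over all genes. Among the 11, Dnajb7 and Dnajb13 were near the floor, at a mean log2 CPM of -1.73 and -1.34, and were not called. Dnajb9 (-1.17, adjusted p = 0.0699) and Dnajb11 (-1.04, 0.0599) did not pass the test.

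Smaller differences reached the adjusted p but not 2-fold. Dnaja2 (chr8:85537633-85555344), a cytosolic J-protein, was at 235, 255, 259 and 233 CPM in WT and 186, 136, 154 and 166 CPM in Tet2-/- CMPs (log2 -0.63, SE 0.11, adjusted p = 0.0093). It was at 263, 299, 272 and 237 against 168, 159, 158.8 and 165 CPM in GMPs (-0.76, SE 0.10) and at 257, 253, 260.3 and 259.6 against 168.8, 158.8, 132 and 156 CPM in MEPs (-0.75, SE 0.10, adjusted p = 0.002). Its WT and Tet2-/- libraries were separate in each of these and also in LT-HSCs (246, 232 and 200.03 against 149, 118, 159.8 and 142 CPM), where the test did not pass (-0.65, SE 0.19, 0.683). In CMPs Dnajb1 (-0.81) and Hspa5 (-0.75, SE 0.17, 0.0265) also passed the adjusted p, with Hspa5 at 829, 784, 946 and 1043 CPM in WT and 511, 703, 544 and 402 CPM in Tet2-/- libraries. In GMPs Dnajc1 passed it as well (-0.999, SE 0.21, 0.0145), just short of 2-fold.

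Members moved in both directions with genotype, and their summed share of the counts was lower in both stem cell pools. They took 0.652% to 0.888% of the counts in Tet2-/- and 0.945% to 1.06% in WT LT-HSCs, and 0.812% to 0.842% against 0.962% to 0.980% in ST-HSCs, without overlap. In CMPs, GMPs, MEPs and CLPs the shares overlapped. The share of mitochondrial counts was higher without overlap in Tet2-/- ST-HSCs (10.01% to 13.1%, against 8.73% to 9.02%), CMPs (7.85% to 8.37%, against 5.94% to 6.57%) and GMPs (4.74% to 5.09%, against 3.64% to 4.60%) and overlapped in MEPs. In LT-HSCs it was 8.82%, 11.4%, 14.0% and 14.5% in Tet2-/- libraries and 8.02% to 9.50% in WT, so 3 of the 4 lay above all WT libraries. In CLPs it was 12.5%, 7.82%, 3.11% and 4.23% in Tet2-/- replicates 2 to 5 and 2.41% to 4.58% in WT. Its part in these differences was not tested. The median log2 value of the members was -0.19, -0.10, 0.03, -0.08, -0.08 and 0.00 in LT-HSC, ST-HSC, CMP, GMP, MEP and CLP, against 0.06, 0.04, 0.03, 0.03, 0.05 and 0.07 over all genes. Members with every Tet2-/- library below every WT library numbered 10 in LT-HSCs (15.4%, against 3.96% of genes) and 4 in ST-HSCs (6.67%, against 4.86%). The same held for 11 members in MEPs (18.3%, against 8.52%), 8 in CMPs (12.7%, against 8.97%), 5 in GMPs (7.94%, against 7.44%) and 2 in CLPs (3.33%, against 1.96%). Those with every Tet2-/- library above were 1 in LT-HSCs (3.12% of genes), none in ST-HSCs (3.28%), 4 in GMPs (5.85%), 3 in CMPs (6.82%), 2 in MEPs (4.52%) and 1 in CLPs (1.91%). Higher without overlap in CMPs were Dnaja3 (a mitochondrial J-protein), Dnajc8 and Hsp90aa1, at log2 0.57, 0.41 and 0.37 with adjusted p of 0.0588, 0.0847 and 0.0757. The mitochondrial chaperonin pair Hspd1 and Hspe1 was not called in any genotype comparison. At an unadjusted p and 2-fold there were 3, 1, 2, 4, 8 and 7 members from LT-HSC to CLP in the order above, beside 3.35%, 3.65%, 8.05%, 7.06%, 7.27% and 2.98% of genes.

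**Figure D5:**
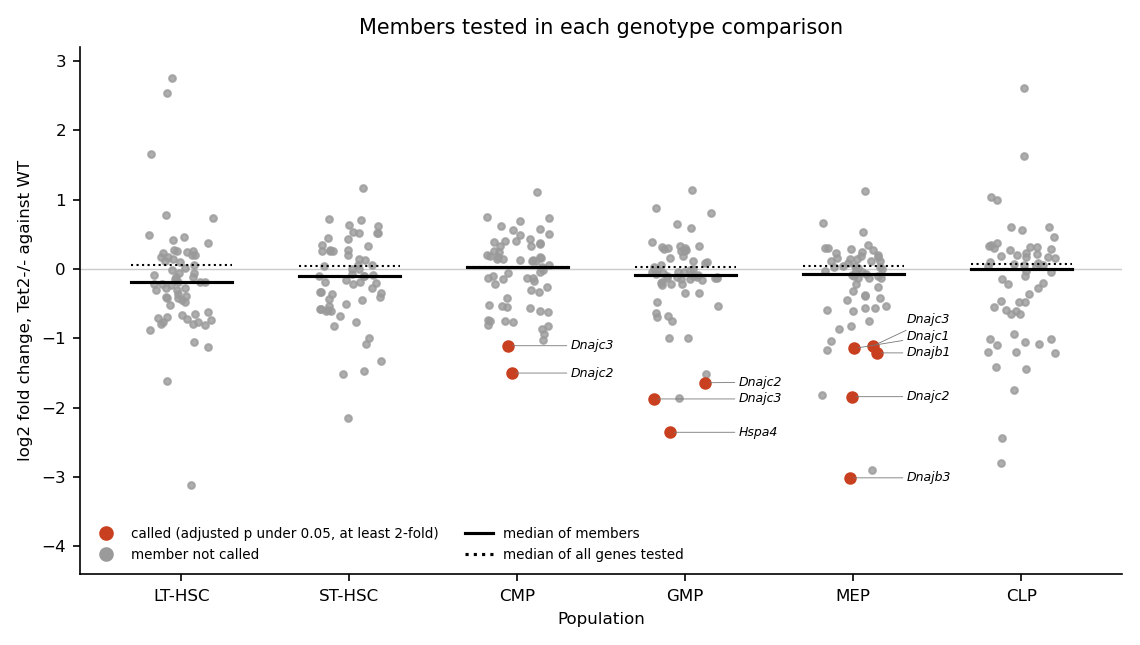
Log2 fold change of Tet2-/- against WT for every member tested in each population, 60 to 65 per population. Red points with names were called lower at an adjusted p under 0.05 and 2-fold, grey points were not called; the solid line is the median of the members and the dotted line that of all genes. The medians of the members lie between -0.19 and 0.03.

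Whether the genotype effect itself differed between populations was tested over all 46 libraries. 3 of 69 members passed (4.35%, against 2.65% of genes): Dnajc3 (adjusted p = 0.00132), Hspa4 (0.00168) and Dnajc2 (0.0127). All 3 held when any single library was left out, with highest adjusted p of 0.00664, 0.00963 and 0.0345, and without the CLP libraries. Dnaja2 did not pass (0.0972), nor did Dnaja3 (0.186).

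In LT-HSCs no member was called by edgeR or DESeq2 (0.0245% of genes were by edgeR and 0.887% by DESeq2), and 8 of 65 had an unadjusted p under 0.05 (12.3%, against 5.16% of genes). At a mean of at least 10 CPM, the lower members of largest difference without overlap were Dnajb11 at 30.3, 29.6 and 22.2 CPM in WT and 11.8, 7.49, 19.8 and 10.7 CPM in Tet2-/- libraries (log2 -1.12, SE 0.38, adjusted p = 0.743), Dnajc30 (-0.81) and Hspa5 (-0.79, 0.743). Dnajb5, at 1.81, 0.464 and 0.968 CPM in WT and at most 0.211 CPM in Tet2-/- libraries, was also lower without overlap (-3.12, 0.954). The summed ER set (Hspa5, Hsp90b1, Dnajb9, Dnajb11 and Dnajc3) was 1161, 992 and 1246 CPM in WT and 876, 804, 737 and 545 CPM in Tet2-/- LT-HSCs, without overlap. Within this sum Dnajc3 went the other way in LT-HSCs. In Tet2-/- libraries the sum was also lower without overlap in CMPs (848 to 1295, against 1345 to 1694 CPM) and MEPs (593 to 863, against 927 to 1319 CPM). In CMPs and MEPs Hsp90b1 was at log2 0.19 and 0.04, and the other summed members were below 0. Of ER members outside the sum, Hspa13 was at 0.18 and 0.31, while Dnajc1 and Dnajb14 were below 0. The sums overlapped in ST-HSCs (607 to 807, against 738 to 1125 CPM) and GMPs (2048 to 2286, against 2169 to 3115 CPM). Dnajb14, an ER membrane J-protein, was the one member with all Tet2-/- LT-HSC libraries above WT, at 17.3, 18.6, 15.8 and 22.5 CPM against 6.92, 9.96 and 0.916 CPM (1.66, 0.91). In ST-HSCs no member was called by edgeR or DESeq2 either (0.0185% of genes by edgeR and 1.16% by DESeq2), and 4 of 60 had an unadjusted p under 0.05 (6.67%, against 6.13%). Hspa14, the HSP70 partner of Dnajc2, was at 133, 133 and 119.9 CPM in WT and 54.6, 47.6, 55.2 and 96.5 CPM in Tet2-/- ST-HSCs (-0.99, SE 0.26, adjusted p = 0.412), and at 126, 141 and 137 against 73.5, 92.3, 98.9 and 57.8 CPM in LT-HSCs (-0.72, SE 0.22, 0.74). Hspa8 also separated in both, at 1545, 1490.1 and 1484 against 1264, 1194, 1171 and 745 CPM in LT-HSCs and 1484, 1463 and 1502 against 1172, 1125, 1294 and 1041 CPM in ST-HSCs.

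In CLPs the spread between libraries was wide and no member was called by edgeR or DESeq2, against 0.00766% of genes by edgeR and 0.911% by DESeq2. 8 of 60 had an unadjusted p under 0.05 (13.3%, against 3.65% of genes). Dnajb11 was at 263, 248, 580.1 and 376 CPM in WT and 96.9, 158.8, 229.7 and 154 CPM in Tet2-/- CLPs, without overlap (log2 -1.19, SE 0.39, adjusted p = 1). Hspa5 was at 1659.7, 2545, 3047 and 1244 against 617, 1266, 1149 and 616 CPM (-1.21, SE 0.42) and Hsp90b1 at 1289, 2402, 4062 and 1129 against 327, 844, 1357 and 782 CPM (-1.42, SE 0.56), both overlapping. The summed ER set was at 3990.5, 6227, 9099 and 3592 CPM in WT replicates 2 to 5, whose immunoglobulin shares were 26.4%, 43.3%, 47.0% and 40.0%. In Tet2-/- replicates 2 to 5 it was at 1313, 2449, 3462 and 1947 CPM, with shares of 0.0840%, 9.36%, 29.2% and 32.6%. Summed plasma cell markers were 159700 to 357270 CPM in WT and 658 to 177620 CPM in Tet2-/- CLPs, and their part in these differences was not tested. With all 46 libraries in one fit, 6.61% of all genes were called in either direction, and 6 members were called lower in Tet2-/- CLPs (Dnajb1, Dnajb11, Dnajb9, Dnajc3, Hsp90b1 and Hspa5).

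Dnaja1 and Dnajc7 were found at moderate levels in every population. Dnaja1, the major DNAJA partner of HSP70 in the cytosol, was at 267 to 526 CPM over all WT libraries and differed among WT populations (adjusted p = 0.00166), with the lowest mean in GMPs (290.7 ± 16.3 CPM, SD, n = 4) and the highest in ST-HSCs (477 ± 28.1 CPM, SD, n = 3). It was not called in any genotype comparison, with log2 values from -0.55 in CLPs to -0.08 in MEPs. Dnajc7, a tetratricopeptide J-protein that binds both HSP70 and HSP90, was at 60.9 to 113 CPM in WT libraries outside CLPs and 117 to 280.1 CPM in WT CLPs, above all of the others. In CLPs it was higher than in ST-HSCs at the adjusted p but not at 2-fold (log2 0.81, SE 0.25, adjusted p = 0.0206). Dnajc15, a J-protein of the mitochondrial inner membrane, went the other way, at 39.4 to 53.7 CPM in WT CLPs and 65.4 to 100.2 CPM in WT ST-HSCs (-0.84, SE 0.19, 0.00212). Tet2-/- CLPs had 64.2 to 142 CPM of Dnajc15, above all WT CLPs, and the genotype test did not pass (0.99, SE 0.34, adjusted p = 1).

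Other members were low or uneven between libraries. Dnajc5, the J-protein of secretory vesicles, ran from 0.896 to 45.2 CPM among WT LT-HSCs and from 2.24 to 57.8 CPM among WT ST-HSCs, and its test among WT populations did not pass (adjusted p = 0.855). Hspa2, an HSP70 best known from the testis, was at 12.03 to 19.0 CPM in WT GMPs and 4.87 to 10.2 CPM in WT CMPs, without overlap, and from 0 to 45.1 CPM in WT CLPs. Hspb8, a small heat shock protein of the autophagy pathway, was at 2.98 to 9.77 CPM in WT LT-HSCs and had no count in WT GMP, MEP or CLP libraries (any difference among WT populations, adjusted p = 0.0197). Dnaja4 was likewise highest in WT LT-HSCs, at 5.51 to 10.7 CPM, and its test did not pass (0.123). Dnajc5b and Hspb3 had no count in any of the 46 libraries, and Dnajb8, Hspb7, Dnajc5g and Dnajc22 reached at most 0.179 CPM in any. Overlaps on the opposite strand also exist for Dnaja1 (with Smu1), Dnaja3 (Coro7), Dnaja4 (Wdr61), Dnajb11 (Gm30505), Dnajc7 (Cnp and Nkiras2), Dnajc14 (Ormdl2), Dnajc19 (Fxr1) and Dnajc30 (Bud23), and their values are uncertain to that extent, while reads of Hspa1a and Hspa1b, near-identical copies, could be split by the counting.

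Other genes of the folding pathways were counted from 4 lists. Of 29 heat shock factor and co-chaperone genes tested, 3 were lower in Tet2-/- CMPs, 2 in GMPs and 3 in MEPs, beside 3.92%, 4.06% and 4.21% of all genes: Fkbp4, an immunophilin partner of HSP90 (log2 -1.26, -1.09 and -1.30), Bag1, a nucleotide exchange factor of HSP70 (-1.35, -1.55 and -1.40) and, in CMPs and MEPs, Stub1, the ubiquitin ligase that tags HSP70 clients (-2.46 and -2.47). The medians of the list were -0.11, -0.03 and -0.04, against 0.03, 0.03 and 0.05 over all genes. In LT-HSCs, ST-HSCs and CLPs they were -0.09, -0.26 and 0.03, against 0.06, 0.04 and 0.07. None was called in LT-HSCs, ST-HSCs or CLPs by edgeR, where 4, 2 and 0 had an unadjusted p under 0.05, beside 5.16%, 6.13% and 3.65% of all genes. Hsf1, the heat shock transcription factor, was at 22.8 to 32.2 CPM in WT and 5.93 to 23.2 CPM in Tet2-/- CMPs, overlapping. Hsf2, a further heat shock factor of this list, was not called between genotypes. Its Tet2-/- libraries were below WT in LT-HSCs (3.08 to 9.13 against 12.3 to 18.5 CPM) and ST-HSCs (0.570 to 10.7 against 16.9 to 21.4 CPM). The same held in GMPs and MEPs, while CMPs and CLPs overlapped. Of the ER stress response list, 6 of 23 were lower in CMPs, 4 of 23 in GMPs and 5 of 22 in MEPs, with medians of -0.32, -0.42 and -0.10, beside the 3.92%, 4.06% and 4.21% of all genes called lower. Creld2 was lower in all 3 (-2.50, -1.59 and -2.64), and Xbp1, the transcription factor of the unfolded protein response, was at 112, 144, 123 and 119 CPM in WT and 18.8, 29.8, 11.2 and 15.4 CPM in Tet2-/- GMPs (-2.76). In CLPs the median was -1.17, none was called and 6 had an unadjusted p under 0.05 (3.65% of all genes). In LT-HSCs and ST-HSCs none was called, and 3 and 1 had an unadjusted p under 0.05 (5.16% and 6.13%). Their medians were 0.04 in LT-HSCs, where 13 of 23 were above 0, and -0.18 in ST-HSCs. Along the WT steps 9 of 23 ER stress genes were higher in CMPs than in ST-HSCs, 8 in GMPs than in CMPs and 18 in CLPs than in ST-HSCs, with medians of 0.86, 1.17 and 3.27, beside 3.77%, 1.6% and 10.2% of all genes called higher. In WT MEPs against CMPs none was higher and 2 were lower, Ern1 (-2.62) and Calr (-1.21), with a median of -0.58, beside 5.52% of all genes called lower. In WT ST-HSCs against LT-HSCs Sdf2l1 was lower (-2.47), beside 0.175% of all genes called in either direction. Of the 29 heat shock factor and co-chaperone genes, 6 were higher in WT CMPs than in WT ST-HSCs, beside 3.77% of all genes. Against the same ST-HSCs 6 were higher and 3 lower in WT CLPs, beside 10.2% and 14.3%. Hsf1 was higher in WT GMPs and Hsf2 lower in WT MEPs than in WT CMPs, beside 1.6% and 5.52%. None of the 14 chaperonin and prefoldin genes was called by edgeR in any of the 6 genotype comparisons. In CMPs 9 of them had an unadjusted p under 0.05, all higher, with a median of 0.35, beside 19.1% of all genes. In the other 5 comparisons 0 to 4 did, beside 3.65% to 17.3% of all genes. The medians were -0.21 in LT-HSCs, where 1 of the 14 was above 0, and -0.11 in ST-HSCs, where 5 were. They were 0.07, 0.19 and 0.18 in GMPs, MEPs and CLPs. Along the WT steps 4 were lower in CLPs than in ST-HSCs, beside 14.3% of all genes. Pfdn1 was higher in WT MEPs than in WT CMPs, beside 0.93%.

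Immediate early genes were the last list. Of 16, 9 were lower in Tet2-/- CMPs, 5 in GMPs and 6 in MEPs, beside 3.92%, 4.06% and 4.21% of all genes. None of the 16 had a log2 value above 0 in these or in CLPs (medians -1.14, -0.84, -1.26 and -1.41); Dusp1 was lower by 2.82, 4.20 and 2.53 on the log2 scale in CMP, GMP and MEP libraries. In CLPs 11 of the 16 had an unadjusted p under 0.05, beside 3.65% of all genes, and none was called. In LT-HSCs and ST-HSCs none was called, 2 and 4 had an unadjusted p under 0.05 (5.16% and 6.13% of all genes), and the medians were 0.31 and 0.02. Between WT MEPs and CMPs 12 of the 16 were lower in MEPs and none higher (median -1.61), beside 5.52% of all genes called lower; its part in the levels of Hspe1 and Dnajc19 was not tested. Tet2-/- CMPs also held more MEP markers, a summed 2756 to 5595 CPM against 560 to 1572 CPM in WT, with 5 of 5 markers over 3 counts in every library. The 6 plasma cell markers summed to 66.2 to 82.8 CPM in Tet2-/- and 129 to 195 CPM in WT CMPs, and to 68.7 to 86.8 against 92.7 to 128 CPM in GMPs, without overlap, and overlapped in MEPs. Immunoglobulin genes took 0.00762% to 0.0110% of the counts in Tet2-/- and 0.0132% to 0.0234% in WT CMPs, and 0.00732% to 0.0104% against 0.0114% to 0.0150% in GMPs. Of the plasma cell markers, 2 to 3 had over 3 counts in every CMP or GMP library of a group; Ighm alone was at 64.5 to 77.6 against 121 to 187 CPM in CMPs, while Prdm1 was at 0 in all WT CMPs and Igha in all Tet2-/- CMPs. The 6 macrophage markers summed to 143 to 181 CPM in Tet2-/- and 98.8 to 138 CPM in WT GMPs, without overlap, with 3 of the 6 over 3 counts in every GMP library. None of these was tested for its part in the lower level of Dnajc2, Dnajc3, Hspa4 and Dnajb1.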

How the data were processed

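Bulk RNA from sorted mouse bone marrow cells (200 cells per sample per the labels, 300 per group in the study's methods) was amplified with a SMART-seq kit. The authors used Trim Galore for trimming and HISAT2 for mapping and deposited raw read counts per gene, 1 column per sample; the counting program and annotation are not given in the sources used here. The study's methods give build mm10 for these reads, while the submitters' processing notes list both mm10 and mm9. A second deposited count table of 9 LT-HSC libraries was used only for values in the closing section, and 2 of its lines could not be read.

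Counts were tested with edgeR 4.0.16 (R 4.3.3, limma 3.58.1) by quasi-likelihood, after filterByExpr and TMM scaling, over the whole table. Genotypes were compared with the 2 groups of each population alone, steps with all libraries of a genotype in one fit, and the interaction with all 46. P-values were adjusted by Benjamini-Hochberg over all genes tested; a call needed an adjusted p under 0.05 and at least a 2-fold change (adjusted p alone for tests over several groups). Fold changes used a prior count of 2. No library pair was identical, and the filter kept 60 to 65 members per genotype comparison. The fits were tested on simulated data.

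Members and gene lists were chosen with earlier results of these data known. Members named are the abundant or best known of each family, all called between genotypes, the 5 called members of largest change per step and direction at a mean of at least 10 CPM, and up to 3 non-overlapping members per genotype comparison and direction; Dnajb5, Dnajb6, Dnajb12, Dnajc4 and Dnajc14 were named after their values were seen. Alternatives were DESeq2 1.42.0, RLE scaling, no low-count filter, leaving out each library, a replicate block, all libraries in one fit, unadjusted p and, added after seeing the data, leaving out immunoglobulin genes or CLPs. Same-numbered libraries were taken as paired where every correlation of their deviations exceeded 0.1, which held for 1 of 16 comparisons (MEP against CMP in Tet2-/- libraries, 0.116 to 0.164). Promoters came from RefSeq (GRCm38.p6) and gene positions from GENCODE vM21 (mm10).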

Additional observations from a re-analysis of the deposited data

Results flagged for a closer look

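In 6 of 108 groups of 4 libraries tested, 1 library lay apart from the other 3 by more than Dixon's 95% limit; chance gives about 1 group in 20. Dnajb4 was at 30.8 CPM in Tet2-/- GMP replicate 2 against 21.4 to 22.6 CPM in the others. Dnajc19 was at 67.6 CPM in WT CMP replicate 3 against 80.4 to 82.7 CPM, and Hspe1 was at 319 CPM in WT CMP replicate 2 against 223 to 234 CPM. Dnajc6 was at 15.6 CPM in Tet2-/- ST-HSC replicate 3 against 33.3 to 34.0 CPM. Hspa13 was at 88.7 CPM in WT GMP replicate 4 against 61.7 to 66.2 CPM. Hspa14 was at 96.5 CPM in Tet2-/- ST-HSC replicate 5 against 47.6 to 55.2 CPM.

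The genotype effect differed between populations for Dnajc3 (adjusted p = 0.00132), Hspa4 (0.00168) and Dnajc2 (0.0127) in the edgeR interaction test over 46 libraries. Log2 values of Dnajc3 were 0.37, 0.06, -1.11, -1.87, -1.11 and -1.02 in LT-HSC, ST-HSC, CMP, GMP, MEP and CLP, those of Hspa4 -0.42, -0.51, -0.77, -2.36, -0.57 and 0.04, and those of Dnajc2 0.17, -0.10, -1.50, -1.64, -1.84 and 0.21.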

How the results depend on the processing

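No result changed direction under any alternative, and RLE scaling left all 19 counts of called members within 1.5 times (it moved the median of all genes by 0.12 for CLP against ST-HSC in WT). Of 73 results on named members, 5 lost a call under RLE scaling, 7 without a low-count filter, 2 with DESeq2 and 7 with the replicate block. With all libraries in one fit 5 of 70 did, and without immunoglobulin genes 4 of 43. DESeq2, the block and the single fit gained 1 call each, and an unadjusted p gained 4. The cause was not tested for the counts and calls that moved. At an unadjusted p and 2-fold, the genotype counts were 3 (LT-HSC), 1 (ST-HSC), 8 (MEP) and 7 (CLP) in place of 0, 0, 5 and 0; in WT steps 5 (ST-HSC over LT-HSC), 12 (CMP over ST-HSC), 12 (GMP over CMP) and 6 (MEP over CMP) in place of 0, 5, 7 and 2; and in Tet2-/- steps 2, 9 and 2 (ST-HSC over LT-HSC, CMP over ST-HSC, MEP over CMP) in place of 0, 4 and 1. DESeq2 called 1, 9 and 5 in WT (ST-HSC over LT-HSC, CMP over ST-HSC, MEP over CMP; 3.73%, 10.6% and 11.4% of all genes), 1 and 2 in Tet2-/- (ST-HSC over LT-HSC, MEP over CMP; 3.71% and 10%) and 6 in the interaction in place of 3 (6.1%). Without a low-count filter 1 was called in the CMP genotype comparison, 1 in MEP over CMP in WT, and 3 and 0 in GMP and MEP over CMP in Tet2-/-. All libraries in one fit gave 2 in the MEP and 6 in the CLP genotype comparison, beside 1.89% and 6.61% of all genes. Without immunoglobulin genes 3 were called in CMP over ST-HSC in WT.

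In 15 comparisons not every correlation exceeded 0.1, so same-numbered libraries were not taken as paired (correlations -0.0506 to 0.228). Every library still matched its own number best in 5 of 9 such steps and 0 of 6 genotype comparisons. Libraries of the same mouse may therefore be among those compared, and the main step and interaction fits treat all libraries as independent. With the replicate block the counts were 1 in the CMP genotype comparison (without Dnajc3), 3 in the MEP one (without Dnajb1, Dnajb3 and Dnajc1, with Dnajb9), 11 in place of 17 in CLP over ST-HSC in Tet2-/- and 0 in place of 1 in MEP over CMP in Tet2-/-; no other count moved by over 1.5 times.

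Leaving out 1 library gave 1 to 3 calls in the CMP, 3 to 4 in the GMP and 2 to 7 in the MEP genotype comparison, 0 in the others, 2 to 4, 15 to 22, 4 to 6 and 1 to 2 in WT steps (CMP and CLP over ST-HSC, GMP and MEP over CMP), 2 to 4, 13 to 18, 1 to 4 and 0 to 1 in the same Tet2-/- steps, and 3 to 5 in the interaction. Among named members, 583 of 676 such fits kept the call or its absence, 91 lost a call and 2 gained one.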

Other observations

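A second table held 9 libraries of LT-HSCs. Of these 3 were WT, 3 lacked Sting, an adaptor of cytosolic DNA sensing, and 3 lacked both Tet2 and Sting (DKO). Totals were 26776517 to 78682096 counts, and its levels were scaled apart from those of the first table. These values were chosen after they were seen, and no test was run.

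All 3 DKO libraries were below the other 6 for 8 of 55 members (14.5%, against 5.81% of 10925 genes): Dnajb1, Dnajb6, Dnajb9, Dnajb11, Dnajc9, Dnajc19, Dnajc30 and Hspa9. Dnajb1 was at 14.2, 30.5 and 28.9 CPM in DKO libraries, against 464 to 641 CPM in WT and 278 to 684 CPM in Sting-/- libraries. Dnajb9 was at 23.2 to 70.7 CPM in DKO and 436 to 767 CPM in the other libraries, and Hspa9 at 13.2 to 109 CPM against 182 to 498 CPM.

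All 3 DKO libraries were above the other 6 for 4 of 55 members (7.27%, against 4.19% of genes): Dnaja1, Hsp90aa1, Hsp90ab1 and Hspa8. Hsp90aa1 was at 2811 to 2867 CPM in DKO libraries and 845 to 1732 CPM in the others, and Hspa8 at 2788 to 4572 CPM against 1299 to 2204 CPM. Dnajc2, Dnajc3 and Hspa4 overlapped between the DKO libraries and the others.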
